A study of Mus musculus with 12 samples.

Results

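The Siglecs are cell-surface lectins that bind sialic acid at the ends of glycan chains. Described here are the mRNA levels of 10 genes in mouse bone marrow–derived macrophages (BMDMs), chosen by name from the 43626 genes counted: the Siglec receptors Siglec1, Cd22, Cd33, Siglece, Siglecf, Siglecg, and Siglech, the phosphatases Ptpn6 and Ptpn11, and the adaptor Tyrobp. All 10 were found under their symbols. The macrophages were kept for 6 hours with PBS, with the sialylated milk sugar 3′-sialyllactose (3′SL, named HMO in the labels) at 100 μg/mL, with 10 ng/mL LPS, the bacterial ligand of TLR4, or with LPS and 3′SL together at the same doses. Such cells are differentiated from marrow in culture and have no tissue around them. Culture, doses, and time are from the study's methods. The labels' extraction text also names incubated BMDMs, whereas their treatment text speaks of mice injected with 3′SL, and the groups are read here as treatments of cultured cells. The labels give no strain, sex, or age for these libraries and no gene deletion in any group. Each condition had 3 stranded, poly(A)-selected RNA-Seq libraries. Nothing in the labels says whether they came from separate mice or cultures. The study's legend for its RNA-Seq gives n = 3 and, for the heatmaps, speaks of independent biological duplicates. The p-values measure the spread between these libraries, and how much of it is technical was not tested.

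Inhibitory Siglecs carry immunoreceptor tyrosine–based inhibitory motifs (ITIMs) in their cytoplasmic tails. Once phosphorylated by Src-family kinases, these motifs recruit the tyrosine phosphatases SHP-1, encoded by Ptpn6, and SHP-2, encoded by Ptpn11. Other Siglecs have no ITIM, and some pair with the adaptor DAP12, encoded by Tyrobp, whose activating motif engages the kinase Syk. Sialoadhesin, encoded by Siglec1, is a large macrophage receptor without an ITIM, whereas Siglec-E, encoded by Siglece, is an ITIM-bearing receptor of mouse myeloid cells. Because 3′SL ends in a sialic acid, such receptors are possible binding partners of the sugar. In other experiments of the study, 3′SL still lowered the Il6 and Il1b mRNA that LPS induced, both in BMDMs without Siglece and in BMDMs without Siglec1. Binding was not measured in the libraries described here. The questions put to the data were which of these genes the macrophages transcribe, how LPS changes them, and whether 3′SL does.

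Of the 10 genes, 7 lie on chromosome 7, and 4 of the receptors, Siglecf, Siglecg, Cd33, and Siglece, share a stretch of 309 kb (GRCm38 chr7:43351341-43660161). Siglece had the largest LPS response of the 10 genes, so the 250 bases before its start in RefSeq (GRCm38.p6, chr7:43660162-43660411, minus strand) are shown. The window overlaps no annotated exon. Capitals mark matches to the letters GAGGAAG, a core of the site for PU.1, the transcription factor of the macrophage lineage; both matches lie on the opposite strand and begin 88 and 37 bases before the start.
Siglece: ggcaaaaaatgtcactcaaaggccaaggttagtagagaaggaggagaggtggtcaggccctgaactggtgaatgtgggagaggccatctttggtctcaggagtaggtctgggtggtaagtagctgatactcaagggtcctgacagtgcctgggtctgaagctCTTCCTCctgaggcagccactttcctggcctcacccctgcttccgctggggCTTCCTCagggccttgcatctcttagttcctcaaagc
Such a match was found in 10.6% of the 32841 windows of this length before RefSeq starts. Sequence windows were at hand for 8 of the 10 genes. In the same windows, Cd33 had 1 match, 226 bases before its start, Siglecf had 1, and Siglecg had 1 in the window of 1 of its starts, while Cd22, Ptpn6, and Ptpn11 had none. Letters of κB and ISRE sites (both given by name alone) and of AP-1 sites (TGANTCA), which are common in genes that answer LPS, were searched on both strands and were in none of these windows, against 3.90%, 2.98%, and 6.75% of all windows. Of these genes, a C/EBP match (TTGCNNAA, 9.57% of all windows) was found for Siglech only. A match is a description of letters, not of a bound site.

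The libraries held 20411741 to 26851890 reads counted on genes. They fall into 3 sets of 4, 1 library of each condition, that follow the running numbers of the labels, and the libraries of a set deviated from their condition means together (mean correlation 0.60). The labels do not say what a set is. Macrophage markers were high in every library, at a summed level of 17420 to 27620 CPM (counts per 1000000 reads after TMM scaling). Stromal markers summed to 618 to 714 CPM in set 1, 26.96 to 39.3 CPM in set 2, and 66.4 to 106 CPM in set 3, and neutrophil markers to 77.0 to 553 CPM over all libraries. The part of either cell type in the results was not tested. In such bulk samples, fewer cells of a type and less RNA per cell cannot be told apart.

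Across the 4 conditions, the adaptor stood highest, and Siglec1 led the receptors. Set against exon length (RPKM, the CPM divided by the exon length in kilobases), Tyrobp was the highest of the 10 genes in every condition, with a mean level between 1089 ± 222 in PBS and 1221 ± 214 RPKM in LPS + 3′SL (SD, n = 3). Siglec1 followed at 64.5 ± 18.5 RPKM in PBS and 151 ± 37 RPKM in LPS, and its range overlapped that of Ptpn6 in all 4 conditions, so that the order of these neighbours was not set. Below them, Ptpn11 stood at 14.2 ± 0.8 RPKM in PBS. The other receptors were far lower. In PBS, Cd22 had 3.02 ± 0.05, Cd33 2.50 ± 1.04, Siglece 1.94 ± 0.64, and Siglecf 1.35 ± 0.39 RPKM, each overlapping the next. Siglecg and Siglech stood last in every condition, at means of at most 0.187 and 0.0704 RPKM.

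**Figure D1:**
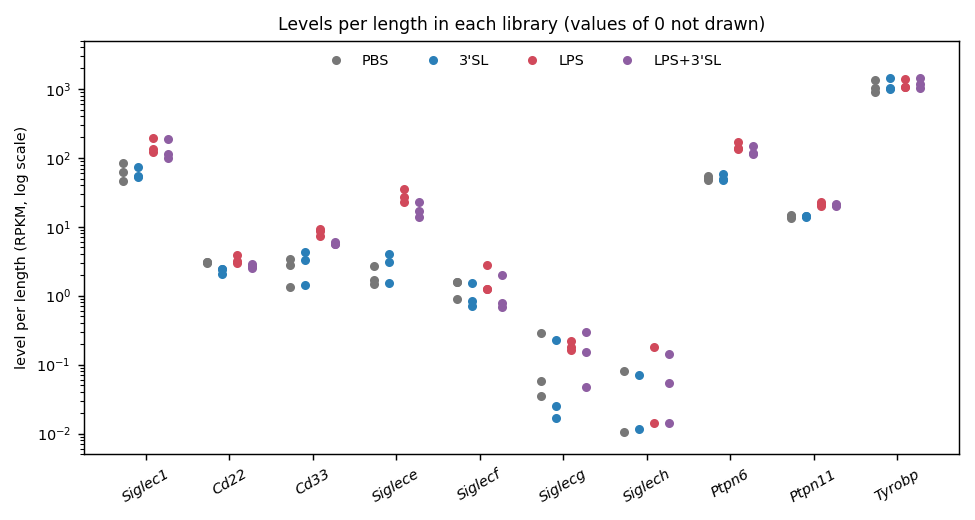
Level per length of each gene (y axis, RPKM on a log scale) in every library, coloured by condition; values of 0, all of Siglech, are not drawn. Tyrobp lies between 910 and 1458 RPKM, and Siglece moves from 7th of the 10 genes in PBS, by its mean, to 4th in LPS.

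The make-up of the receptors differed between conditions. Of the summed RPKM of the 7 receptors, Siglec1 held 84.6% to 90.6% in the PBS libraries and 73.7% to 82.2% in the LPS libraries, and Siglece 2.34% to 2.88% and 11.7% to 18.9%. With 3′SL beside LPS, the share of Siglece was 7.91% to 15.7%, and that of Siglec1 77.8% to 86.9%.

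Under LPS, 3 receptors and 1 phosphatase rose: Siglece, Cd33, Siglec1, and Ptpn6. Calls needed both a 1.5-fold difference and an adjusted p below 0.05 in the quasi-likelihood test of edgeR, run on 14308 genes, 9 of the 10 among them. So 4 of these 9 were called, all higher, where 38.5% of all genes were called, 18.3% higher and 20.2% lower. Under scaling by total counts 3 of the 9 were called, all higher, where 10.7% of all genes were called higher and 46.5% lower. With TMM scaling, their median log2 fold change was 0.58, against -0.06 over all genes. In the cells given 3′SL, LPS called 3 of the 9, all higher, where 29.2% of all genes were called and 14.3% were called higher. Both LPS comparisons have their own control libraries.

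Siglece (ENSMUSG00000030474.8, chr7:43651070-43660161, minus strand) had the largest change. Its level was 2.70, 3.16, and 4.92 CPM in the PBS libraries of sets 1, 2, and 3, and 42.4, 64.5, and 50.8 CPM in the LPS libraries. Every LPS library was far above every PBS library. The log2 fold change was 3.87 (SE 0.37, 95% interval 3.05 to 4.69), or 14.6-fold, with an edgeR adjusted p of 1.39e-05. In the cells given 3′SL, the level was 2.86, 5.61, and 7.35 CPM without LPS and 25.5, 41.9, and 31.3 CPM with it. Again no library overlapped, and the log2 fold change was 2.64 (SE 0.35, edgeR adjusted p = 0.000200), or 6.24-fold. Siglece went from 7th of the 10 genes per length in PBS to 4th in LPS, where its range was apart from those of both neighbours, Ptpn6 and Ptpn11.

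Cd33 (ENSMUSG00000004609.7, chr7:43524216-43544428, minus strand) encodes another myeloid Siglec, from the same stretch of chromosome 7. It stood at 21.8, 26.1, and 10.4 CPM in PBS and at 68.5, 72.6, and 57.1 CPM in LPS. The groups were apart, with set 3 lowest in both. Cd33 rose by 1.77 on the log2 scale (SE 0.39, edgeR adjusted p = 0.00326), or 3.41-fold. Given 3′SL, it stood at 25.9, 34.0, and 11.1 CPM without LPS and at 43.2, 46.3, and 44.4 CPM with it. Here too the libraries did not overlap, as for 22.4% of all genes in this direction, but the log2 difference of 0.92 (SE 0.38) was not called, with an edgeR adjusted p of 0.0833. It was called with the library set as a block (1.04, edgeR adjusted p = 0.00462) and by DESeq2 (0.97, DESeq2 adjusted p = 0.0295), which called 35.8% and 30.9% of all genes. The rise within sets was uneven, with log2 ratios of 0.74, 0.45, and 2.01.

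Siglec1 (ENSMUSG00000027322.7, chr2:131069220-131086765, minus strand) was by far the most abundant receptor. It had 334, 451, and 597 CPM in PBS and 876, 972, and 1379 CPM in LPS. Every LPS library was above every PBS library, and the order of the sets was the same in both. Siglec1 rose by 1.22 on the log2 scale (SE 0.29, edgeR adjusted p = 0.00558), or 2.33-fold. With 3′SL present, it had 385, 378, and 533 CPM without LPS and 717, 801, and 1328 CPM with LPS, and rose by 1.13 on the log2 scale (SE 0.29, edgeR adjusted p = 0.0110). The call against PBS is lost when libraries are scaled by total counts, with a log2 fold change of 0.55 that is under the fold minimum. Of 7 macrophage markers, 4 also rose with LPS, Adgre1, Itgam, Mertk, and Fcgr1, where 18.3% of all genes were called higher. Under total counts 2 of them, Adgre1 and Fcgr1, did, where 10.7% of all genes were called higher. The 7 together summed to 17420 to 20320 CPM in PBS and 24600 to 27270 CPM in LPS, most of it from Lyz2, which was not called. Their part in the change of Siglec1 was not tested.

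**Figure D2:**
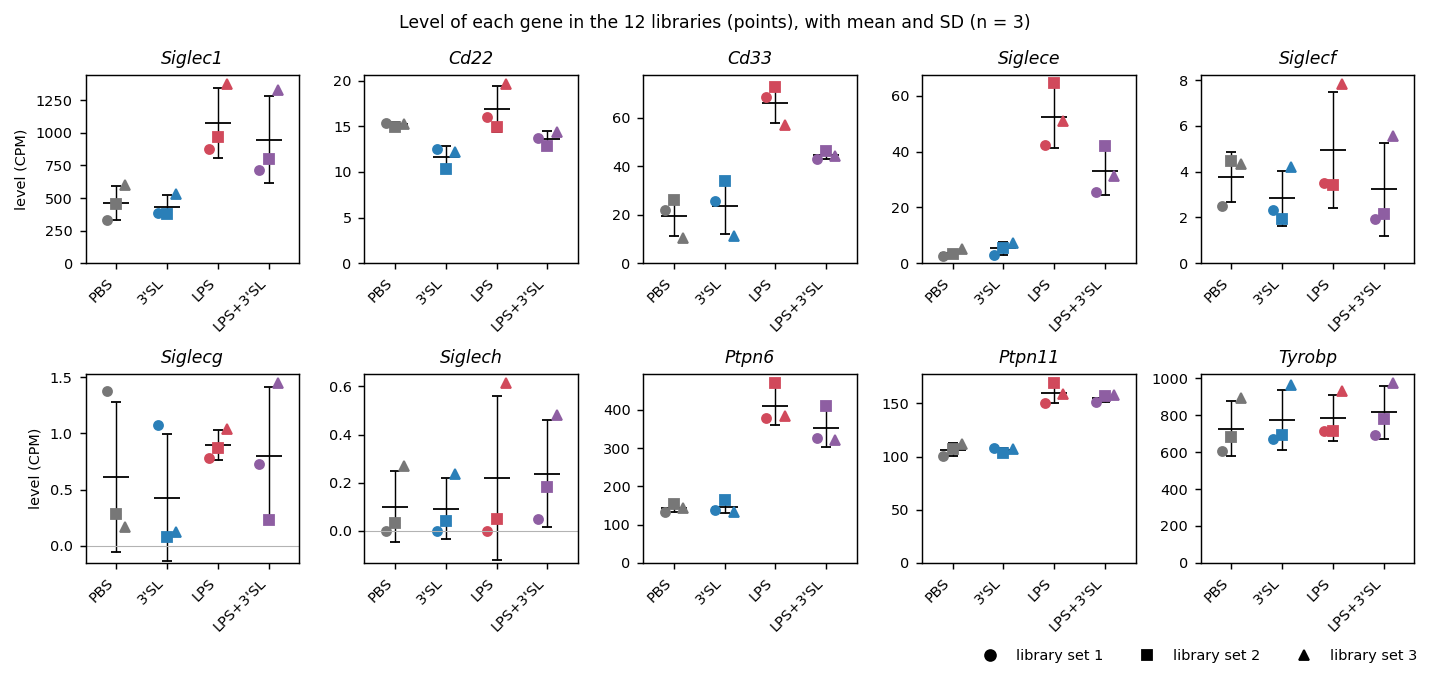
Level of each of the 10 genes (y axis, CPM, from 0 or just below it, 1 scale per gene) in the 12 libraries by condition; points are libraries, shaped by library set, and bars the mean and SD of 3. For Siglec1, Cd33, Siglece, Ptpn6, and Ptpn11, both LPS conditions lie above both conditions without LPS. Of all genes, 27.3% lay apart upward for LPS against PBS and 22.4% for LPS + 3′SL against 3′SL. For Siglece, Cd33, and Cd22 all LPS + 3′SL points lie below all LPS points, as for 6.51% of all genes.

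The remaining receptors were not called in any comparison. Cd22 (ENSMUSG00000030577.9, chr7:30865402-30880342, minus strand), which encodes an inhibitory coreceptor best known from B cells, had 15.4, 14.9, and 15.3 CPM in PBS and 16.0, 14.9, and 19.7 CPM in LPS. The groups overlapped, and the log2 difference was 0.15 (95% interval -0.15 to 0.44, edgeR adjusted p = 0.397). Cd22 had 259 to 537 counts. Of the B cell markers, Ighm had 190 to 1914 counts and Cd79b 10 to 67, whereas Pax5 had at most 2. Cd79b was lower with LPS (log2 fold change -1.38, edgeR adjusted p = 0.0459), and the part of B cells in the level of Cd22 was not tested. Of the exons of Cd22, 479 nucleotides overlap the gene Gm29439 on the other strand, and whether the authors' counting used the strand is not given in the sources used here, so reads of the pair may not be told apart.

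Siglecf (ENSMUSG00000039013.12, chr7:43351341-43359531, plus strand), a receptor known from eosinophils and alveolar macrophages, had 2.50, 4.45, and 4.35 CPM in PBS, 2.34, 1.95, and 4.21 CPM in 3′SL, 3.51, 3.44, and 7.85 CPM in LPS, and 1.94, 2.16, and 5.57 CPM in LPS + 3′SL. All conditions overlapped, and set 3 was the highest or near it in each. With LPS the log2 difference was 0.39 (95% interval -0.70 to 1.47, edgeR adjusted p = 0.563). Of 4 eosinophil markers, Ccr3 had 1158 to 4319 counts and made up nearly all of their summed level, which was 81.8 to 146 CPM in PBS, 58.5 to 77.5 CPM in 3′SL, 64.9 to 156 CPM in LPS, and 56.6 to 138 CPM in LPS + 3′SL. Prg2 had 1 to 23 counts, Il5ra at most 7, and Epx at most 4. The part of eosinophils in the level of Siglecf was not tested.

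Siglecg (ENSMUSG00000030468.8, chr7:43408204-43418358, plus strand), known from B-1 cells, was near the limit of detection. It had 48, 8, and 5 counts in PBS, 29, 2, and 3 in 3′SL, 16, 18, and 17 in LPS, and 15, 5, and 27 in LPS + 3′SL. The set 1 libraries without LPS were the highest by counts, and in every condition but LPS the spread was larger than any difference between condition means. The log2 difference with LPS had a 95% interval of -1.67 to 2.75. Siglech (ENSMUSG00000051504.14, chr7:55768178-55778925, plus strand), the DAP12-coupled Siglec of plasmacytoid dendritic cells, had 0 to 10 counts and did not pass the filter on low counts. Set 3 held the most, with 8 counts in PBS, 6 with 3′SL, 10 with LPS, and 9 with both, against 0 to 4 in the other sets. A count of 0 allows up to 3 counts, between 0.0861 and 0.146 CPM in those libraries, counting error only. Of 6 plasmacytoid dendritic cell markers, Il3ra had 397 to 702 counts and Cox6a2 10 to 56, and Ccr9 rose with LPS from 3 to 7 counts to 31 to 54 (log2 fold change 3.93, edgeR adjusted p = 0.000179). Spib had at most 9 counts, Pacsin1 at most 7, and Klk1 at most 2. The 6 summed to 18.8 to 24.7 CPM in PBS, 16.9 to 22.1 CPM in 3′SL, 25.6 to 45.3 CPM in LPS, and 23.6 to 43.0 CPM in LPS + 3′SL, and their part in the level of Siglech was not tested.

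Of the phosphatases, Ptpn6 (ENSMUSG00000004266.11, chr6:124720707-124738714, minus strand), the one most tied to ITIM receptors in blood cells, rose with LPS. Its level was 134, 154, and 142 CPM in PBS and 379, 469, and 383 CPM in LPS. The groups were far apart and the spread within each was small. Ptpn6 rose by 1.52 on the log2 scale (SE 0.14, edgeR adjusted p = 9.72e-06), or 2.87-fold, with within-set log2 ratios of 1.503, 1.61, and 1.43. In the cells given 3′SL, the level was 139, 163, and 134 CPM without LPS and 327, 410, and 322 CPM with it, and Ptpn6 rose by 1.28 (SE 0.14, edgeR adjusted p = 4.81e-05). Over 195 nucleotides its exons overlap Gm20531 on the other strand.

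Ptpn11 (ENSMUSG00000043733.10, chr5:121130533-121191397, minus strand), the broadly expressed relative, had 101, 107, and 112 CPM in PBS and 151, 169, and 159 CPM in LPS. The groups did not overlap, as for 27.3% of all genes in this direction. The edgeR adjusted p of 0.000177 passed, but the log2 difference of 0.58 (SE 0.08) lies just under the fold minimum. With 3′SL, levels were 108, 104, and 107 CPM without LPS and 151, 157, and 158 CPM with it, a log2 difference of 0.55 (edgeR adjusted p = 0.000377). Scaling by total counts turned the first difference to -0.07. That scaling also moved the median of all genes in the LPS comparison from -0.06 to -0.71.

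Tyrobp (ENSMUSG00000030579.9, chr7:30413760-30417585, plus strand) was high in every library. It had 607, 680, and 892 CPM in PBS, 671, 694, and 963 CPM in 3′SL, 714, 711, and 929 CPM in LPS, and 694, 778, and 972 CPM in LPS + 3′SL. All conditions overlapped, and set 3 was the highest in each. The log2 difference with LPS was 0.11 (SE 0.21, 95% interval -0.34 to 0.57, edgeR adjusted p = 0.702), and -0.55 under scaling by total counts, which lowered the median of all genes as well.

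**Figure D3:**
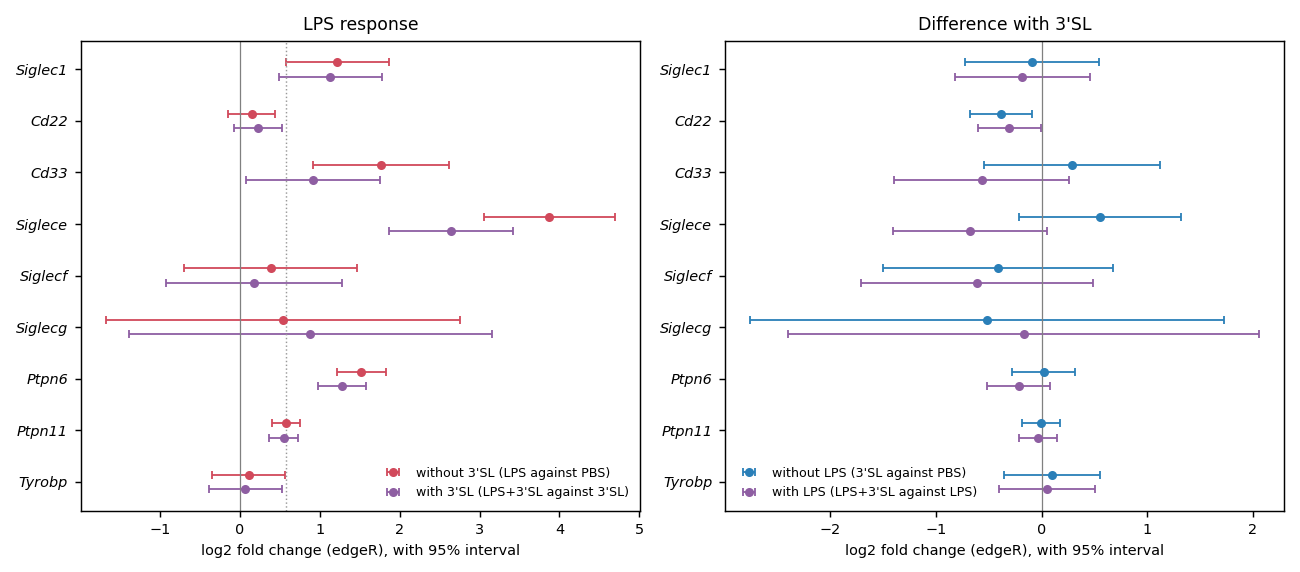
Log2 fold change (x axis, edgeR, with 95% interval) of the 9 genes tested, for LPS without and with 3′SL (left, dotted line at 1.5-fold) and for 3′SL without and with LPS (right). In the left panel the points of Siglece, Cd33, Siglec1, and Ptpn6 lie past the dotted line with intervals above 0, and in the right panel only the intervals of Cd22 leave out 0.

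With 3′SL alone, none of the 9 genes was called, and 0% of all genes were called by edgeR. The same held for 3′SL beside LPS (0%) and for the interaction, the difference between both LPS responses (0%). At an unadjusted p under 0.05, 1 of the 9 passed in each of these comparisons, where 10.1%, 6.95%, and 6.09% of all genes did. DESeq2 called none of the 9, and 0.615%, 0.790%, and 0.308% of all genes. The library set as a block called none of the 9 either, and 2.84%, 1.45%, and 1.55% of all genes.

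Cd22 was the gene with the unadjusted p under 0.05 in both 3′SL comparisons. Its level with 3′SL was 12.5, 10.3, and 12.2 CPM, below every PBS library, a log2 difference of -0.38 (95% interval -0.68 to -0.09, edgeR adjusted p = 0.410). Libraries lay apart in this direction for 8.53% of all genes. With LPS + 3′SL it had 13.7, 12.8, and 14.4 CPM, below every LPS library, a log2 difference of -0.30 (95% interval -0.60 to -0.01, edgeR adjusted p = 0.705). Libraries lay apart in this direction for 6.51% of all genes. The difference was negative in all 3 sets of both comparisons, but the share of all genes with such agreement was not counted. The summed level of B cell markers was not lower beside it. It was 18.2 to 21.6 CPM in PBS and 25.6 to 77.0 CPM in 3′SL, most of it from the immunoglobulin gene Ighm.

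Siglece and Cd33 lay on opposite sides without and with LPS. Given alone, 3′SL came with log2 differences of 0.55 for Siglece (95% interval -0.21 to 1.32, edgeR adjusted p = 0.643) and 0.28 for Cd33 (95% interval -0.55 to 1.12, edgeR adjusted p = 0.862), and their libraries overlapped. Beside LPS, all 3 libraries with 3′SL lay below all 3 without it for both genes, as for 6.51% of all genes. The log2 difference was -0.68 for Siglece (95% interval -1.40 to 0.05, edgeR adjusted p = 0.774) and -0.57 for Cd33 (95% interval -1.40 to 0.26, edgeR adjusted p = 0.936). Within sets 1, 2, and 3 it was -0.73, -0.62, and -0.70 for Siglece and -0.67, -0.65, and -0.36 for Cd33. For Siglece the block narrowed the error, with a log2 difference of -0.68 (SE 0.19) and an edgeR adjusted p of 0.0992.

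The interaction bears on whether the LPS response of these receptors differed with 3′SL. It was -1.23 for Siglece (SE 0.48, edgeR adjusted p = 0.746) and -0.85 for Cd33 (SE 0.53, edgeR adjusted p = 0.854). Neither was called, nor were they with the block (edgeR adjusted p = 0.0692 and 0.262). With the block and set 3 left out, both were, at -1.14 and -0.95 (edgeR adjusted p = 0.00732 and 0.00185), where 3.17% of all genes were called. Both differences between LPS + 3′SL and LPS were called there too, where 2.58% of all genes were. Leaving out set 1 or set 2 instead gave no such call. These comparisons share the libraries of the LPS and the LPS + 3′SL condition, so their values are not independent of one another.

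**Figure D4:**
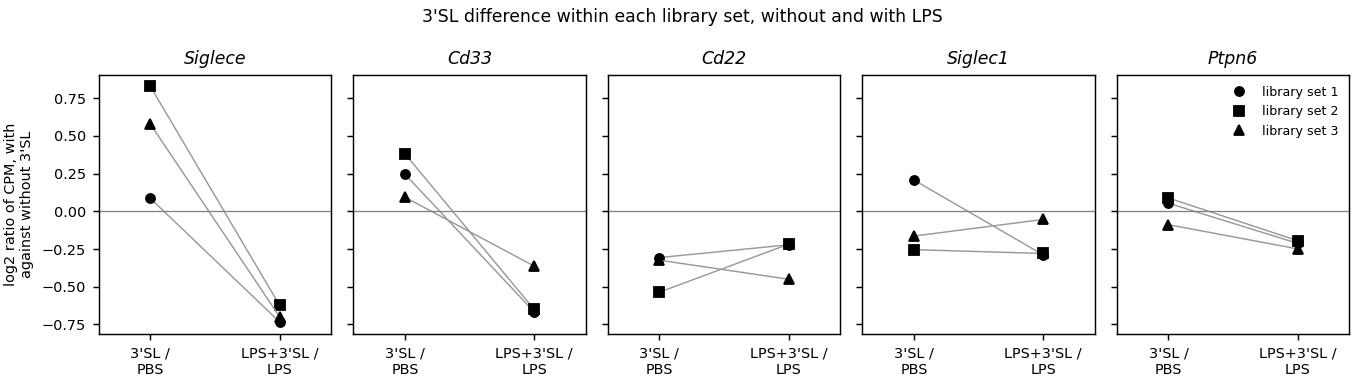
Log2 ratio of CPM with against without 3′SL (y axis) within each of the 3 library sets, without LPS (left of each panel) and with LPS (right), for 5 genes; lines join the ratios of a set. The ratios of Siglece and Cd33 lie above 0 without LPS and below 0 with LPS in all 3 sets. Those of Cd22 lie below 0 throughout. Shares of all genes with these patterns were not counted.

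For the remaining genes, the 3′SL differences were small or poorly determined. Siglec1 differed by -0.09 without LPS (95% interval -0.73 to 0.54) and by -0.18 beside LPS (95% interval -0.82 to 0.46). Ptpn6 differed by 0.02 without LPS (95% interval -0.28 to 0.32) and by -0.22 beside LPS (95% interval -0.52 to 0.08), with all 3 sets lower in the latter. For Ptpn11 the intervals were -0.18 to 0.17 without LPS and -0.21 to 0.14 beside LPS, which leaves out a change of 1.5-fold. Tyrobp differed by 0.10 without LPS and 0.05 beside LPS, with intervals of -0.36 to 0.55 and -0.40 to 0.51. Siglecf differed by -0.41 and -0.61, with intervals that reached -1.71. Within sets 1, 2, and 3 its log2 ratios were -0.0916, -1.19, and -0.0460 without LPS and -0.86, -0.67, and -0.50 beside LPS, all negative. For Ptpn6 and Siglecf too, the share of all genes with the same sign in all 3 sets was not counted.

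Genes that work with the Siglecs were examined as lists, whose counts for LPS stand beside the 18.3% of all genes called higher and 20.2% called lower. Of the other ITIM-binding phosphatases, Inpp5d, which encodes SHIP-1, fell with LPS from 367 ± 79 CPM to 166 ± 35 CPM, by a log2 value of -1.14 (edgeR adjusted p = 0.00132). That is the opposite direction to Ptpn6. It also fell in the cells given 3′SL (log2 fold change -0.81, edgeR adjusted p = 0.0126). Inppl1, which encodes SHIP-2, was not called (log2 difference 0.02), but was called lower under scaling by total counts (-0.64, edgeR adjusted p = 0.00131). Of the other adaptors, Fcer1g, the common γ chain of Fc receptors, rose from 436 ± 17 to 860 ± 119 CPM (log2 fold change 0.98, edgeR adjusted p = 0.000395), and Hcst was not called.

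Among 16 Src and Syk kinases and adaptors tested, 9 rose with LPS and 1 fell, with a median log2 fold change of 0.81 against -0.06 over all genes. The largest rise was that of Src, the kinase that names the family, from 4.12 ± 0.996 to 124 ± 36 CPM (edgeR adjusted p = 5.60e-06), and Cblb, a ubiquitin ligase, fell from 127 ± 17 to 76.9 ± 10.4 CPM (edgeR adjusted p = 0.0119). Of 15 other ITIM receptors, 8 rose and 1 fell. Fcgr2b, the inhibitory receptor for IgG, rose from 137 ± 19 to 1222 ± 493 CPM (edgeR adjusted p = 4.93e-05), and Cd300a, an inhibitory receptor for phospholipids, fell from 135 ± 25 to 53.3 ± 8.1 CPM (edgeR adjusted p = 0.000697).

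Of 13 other DAP12-coupled receptors, 3 rose and 2 fell, a share near the 38.5% of all genes called. The largest rise was that of Klrk1, the receptor NKG2D, from 0.196 ± 0.214 to 13.4 ± 6.9 CPM (edgeR adjusted p = 5.16e-05), and the largest fall that of Cd300lb, from 252 ± 48 to 79.5 ± 9.3 CPM (edgeR adjusted p = 5.11e-05). Of 6 sialoglycoproteins tested that can carry Siglec ligands, 4 rose and none fell. Lgals3bp, a secreted sialylated glycoprotein, rose from 531 ± 177 to 1695 ± 531 CPM (edgeR adjusted p = 0.00283). Of the other Siglecs, Mag was tested and not called (log2 difference 0.86, edgeR adjusted p = 0.207), and Siglec15 did not pass the filter.

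Under scaling by total counts, fewer genes of these lists rose: 5 of the 16 kinases and adaptors, 6 of the 15 ITIM receptors, and 1 of the 6 sialoglycoproteins, while 3 of the DAP12-coupled receptors did under either scaling. More fell: 3 kinases and adaptors, 3 ITIM receptors, 4 DAP12-coupled receptors, both phosphatases, and the adaptor Hcst, and Fcer1g was not called. Under that scaling 10.7% of all genes were called higher and 46.5% lower. In the cells given 3′SL, LPS raised 9 kinases and adaptors, 8 ITIM receptors, 2 DAP12-coupled receptors, and 3 sialoglycoproteins, where 14.3% of all genes were called higher. None of the genes in these lists was called for 3′SL, without or with LPS, or in the interaction.

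Over the 12 libraries, the genes whose log2 levels were most like those of Siglece, out of 12128 with a mean of at least 1 CPM, were Lad1 (Pearson's r = 0.993), Mitf, Gpr85, Adam17, and Lcp1. For Siglec1 they were Lgals3bp (r = 0.993), Rrbp1, Hipk2, Ly86, and H2-K1. For Tyrobp they were H2-Aa (r = 0.971), Cd74, Pltp, Nxf1, and Adgre4. Among those of the 10 genes with a mean of at least 1 CPM, Siglece followed Ptpn6 (r = 0.970) and Ptpn11 (r = 0.967) most closely. Tyrobp followed Siglecf (r = 0.702) more than Siglece (r = 0.342). The libraries share conditions and sets, so these values describe a common pattern over 4 conditions and 3 sets and carry no p. For Tyrobp, set 3 was the highest in each condition, and the conditions overlapped.

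In the stretch of chromosome 7, Siglece and Cd33 rose with LPS and Siglecf and Siglecg were not called. Of the 12 other protein-coding genes there, 5 were tested and 2 were called, a share near the 38.5% of all genes. They were Zfp658 and Zfp719, both higher, which lie between Cd33 and Siglece and encode zinc finger proteins. Their log2 fold changes were 2.77 (edgeR adjusted p = 6.11e-05) and 2.06 (edgeR adjusted p = 6.19e-06). They were named after their values were seen.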

How the data were processed

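For each of 12 libraries, the authors deposited the count of reads on every gene, in whole numbers and without normalization. Per the labels, the tools were FastQC, Trimmomatic, STAR, HTSeq, and DESeq2. Versions, genome build, annotation, and strand setting are not given in the sources used here. Identifiers were matched without version numbers to GENCODE M21 (GRCm38), which named 42462 of 43626 genes, and promoter windows were taken from RefSeq.

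Counts were analysed with edgeR 4.0.16 (R 4.3.3). Genes were kept by filterByExpr with conditions as groups, and libraries were scaled by TMM factors (0.70 to 1.30). All 12 libraries entered 1 quasi-likelihood fit with a mean for each condition. Adjustment followed Benjamini and Hochberg over the 14308 genes tested. CPM and RPKM use TMM-scaled totals and the union of exons. Levels are means ± SD of 3 libraries, and SEs come from the fit. Reads were counted without molecular identifiers. The edgeR step was tried on simulated counts for LPS against PBS only, drawn without library sets. Recovery of 3′SL differences or of an interaction was not tested.

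All 10 genes were to be named, and from every other list the largest called rise and fall. The genes and the lists were chosen with earlier results of these data known. Alternatives were other scalings, DESeq2 1.42.0, other filters (at least 1 count in any library, at least 10 in every library), fits of the compared groups alone, the library set as a block, and each library left out. Leaving out a whole set under the block was added after the data were seen.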

Additional observations from a re-analysis of the deposited data

Results flagged for a closer look

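Siglece and Cd33 were flagged because their difference with 3′SL pointed up without LPS and down beside LPS in all 3 library sets. Without LPS, the log2 ratio was as small as 0.0862 for Siglece (set 1) and 0.0941 for Cd33 (set 3). The pattern was looked for among the 9 genes tested only, and its share of all genes was not counted. The interaction, the test of that difference itself, was -1.23 on the log2 scale for Siglece (SE 0.48, edgeR adjusted p = 0.746) and -0.85 for Cd33 (SE 0.53, edgeR adjusted p = 0.854), so neither passed. At 3 libraries a group, no condition was tested for a library far from the others.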

How the results depend on the processing

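Siglece and Ptpn6 were called for LPS, without and with 3′SL, under every alternative run, and so was Cd33 for LPS against PBS. With each library left out, 4 to 5 of the 9 genes were called for LPS against PBS and 3 to 4 for LPS + 3′SL against 3′SL (Cd33 was the fourth without the 3′SL library of set 2 or the PBS library of set 3), and 0 in the other comparisons. By DESeq2 the LPS + 3′SL against 3′SL count was 5, with Cd33 and Ptpn11, and 5 with the block and set 1 left out, with Cd33 and Siglecg. With the block and set 3 left out, 2 were called for LPS + 3′SL against LPS and 2 in the interaction, both times Siglece and Cd33. At an unadjusted p under 0.05 and 1.5-fold, 1 was called in the interaction, Siglece. With the longest transcript as length, 34 of 40 ranks were kept. The cause of these changes was not tested.

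Siglec1 lost its call for LPS against PBS under total counts (0.55) and total counts with the block (0.57). Ptpn11 passed the fold minimum by DESeq2 (0.63), with its size factors (0.63), and without the LPS library of set 1 or the PBS library of set 3 (both 0.62). Total counts reversed LPS against PBS for Cd22 (-0.52), Tyrobp (-0.55), Siglecf (-0.31), Siglecg (-0.15), and Ptpn11 (-0.0709), and with the block for Cd22 (-0.52), Tyrobp (-0.54), Siglecf (-0.36), and Ptpn11 (-0.0797). They reversed LPS + 3′SL against 3′SL for Cd22 (-0.25), Tyrobp (-0.41), and Siglecf (-0.34), and with the block for Cd22 (-0.25), Tyrobp (-0.41), and Siglecf (-0.37). Small 3′SL differences turned as well: Ptpn6 under total counts (-0.0574, with the block -0.0739) and Ptpn11 with DESeq2 size factors (0.000618), by DESeq2 (0.000923), and beside LPS under total counts (0.0536, with the block 0.0531).

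Leaving out single libraries turned the 3′SL difference of Cd33 (range -0.0724 to 0.60), Ptpn11 (-0.0467 to 0.0334), Ptpn6 (-0.0724 to 0.0736), Siglec1 (-0.31 to 0.14), Siglecg (-2.57 to 0.92), and Tyrobp (-0.13 to 0.27), and beside LPS that of Ptpn11 (-0.0742 to 0.00925), Siglec1 (-0.50 to 0.0397), Siglecg (-0.90 to 0.27), and Tyrobp (-0.0903 to 0.19). It turned LPS against PBS for Siglecf (-0.11 to 0.59) and Tyrobp (-0.0266 to 0.29), and LPS + 3′SL against 3′SL for Siglecf (-0.46 to 0.59) and Tyrobp (-0.0739 to 0.27).

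Over all genes, the block with total counts called 9095 for LPS against PBS and 7421 for LPS + 3′SL against 3′SL, where 5502 and 4171 were called. For 3′SL against PBS, where 0 were called, DESeq2 called 88, the block 406, the block with total counts 365, the block with set 1, 2, or 3 left out 2, 3, and 323, and the unadjusted p with 1.5-fold 620. For LPS + 3′SL against LPS, also 0, DESeq2 size factors and total counts called 1 each, the filter of 1 count 2, DESeq2 113, the block 207, the block with total counts 218, the block without set 1 or 3 1 and 371, the unadjusted p with 1.5-fold 402, and single libraries left out 0 to 8. For the interaction, also 0, DESeq2 called 44, the block 222, with total counts 136, without set 1 or 3 1 and 457, and the unadjusted p with 1.5-fold 567. The sets are runs of library numbers and no stated pairing. Residuals agreed within sets (mean correlation 0.60) and the block lowered the common coefficient of variation from 0.310 to 0.133. With 3 libraries a condition and levels under 10 CPM, 3′SL differences well above 1.5-fold were not resolved for Siglecf and Siglecg. The interval was -1.71 to 0.48 for Siglecf beside LPS and -2.76 to 1.73 for Siglecg without LPS. For Siglec1, Cd33, Siglece, and Cd22 the 3′SL intervals also included a 1.5-fold change, without and beside LPS. Those of Ptpn6, Ptpn11, and Tyrobp left it out.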
